A study of Homo sapiens with 12 samples.

Results

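Histone H3 carrying 3 methyl groups on lysine 79 (H3K79me3) was counted over 157878 short regions in DLD1 colorectal cancer cells and 3 derived lines, and on chromosomes 1 to 19 47.5% of these regions lay inside only 1267 genes. These densely tiled genes were chosen as the gene rows of the H3K27me3 table (intervals with the bounds of genes on hg19, with repeated rows dropped and the widest of nested rows kept) that held 30 or more H3K79me3 regions fully inside. They were 1267 of 34314 rows, 3.69% of all rows and 11.8% of the 10719 rows with at least 1 region. The rule counted regions in 1 set used for all 4 lines. How the lines entered that set is not given in the sources used here, so a gene with regions called only where its signal is high could also meet the rule.

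The 12 libraries came from chromatin immunoprecipitation and sequencing (ChIP-seq) of 4 related colorectal cancer lines, each with 1 library for H3K79me3, H3K27me3 and H3K4me3. DLD1 is the epithelial parental line. SA, a mesenchymal line obtained through soft agar, SPH, a mesenchymal line obtained through colonospheres, and METS, an epithelial line obtained from a lung metastasis in a xenograft, derive from it. All were grown in serum-supplemented McCoy's 5A, and the Diagenode iDeal kit was used for the immunoprecipitation. The titles call every line parental, and the line and its phenotype were taken from the other labels. Each line is 1 population measured once per mark, so that a difference between 2 lines has no replicate check, and whether the derivatives are clones is not given in the sources used here.

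H3K79 is methylated by DOT1L, which is brought to transcribed genes in complexes with MLLT3, MLLT1 and MLLT10 and with elongation factors, and the mark typically lies over the first part of a transcribed gene. H3K4me3 marks active promoters. H3K27me3 is set by Polycomb repressive complex 2, with EZH2 and SUZ12, and covers silent genes.

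The genes are introduced through the promoters of the 5 with the most H3K79me3 regions among those with a single promoter in the RefSeq table and the strongest H3K4me3 within 2 kb of the row end at that promoter, because place along the gene is counted from that end below. The 250 bases before the RefSeq start (GRCh38.p14, gene strand, 5′ to 3′) are shown with each CG pair in capitals.
MLLT3: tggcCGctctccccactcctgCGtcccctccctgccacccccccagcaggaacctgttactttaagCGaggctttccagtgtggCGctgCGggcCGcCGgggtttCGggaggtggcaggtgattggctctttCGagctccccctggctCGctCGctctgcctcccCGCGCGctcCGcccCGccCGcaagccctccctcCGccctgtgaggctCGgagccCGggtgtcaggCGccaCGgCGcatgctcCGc
ANKRD11: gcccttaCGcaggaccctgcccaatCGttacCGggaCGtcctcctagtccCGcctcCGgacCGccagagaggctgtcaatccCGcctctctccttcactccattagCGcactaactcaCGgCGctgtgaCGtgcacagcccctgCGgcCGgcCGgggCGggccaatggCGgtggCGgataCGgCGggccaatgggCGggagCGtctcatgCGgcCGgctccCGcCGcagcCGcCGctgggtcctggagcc
MYO10: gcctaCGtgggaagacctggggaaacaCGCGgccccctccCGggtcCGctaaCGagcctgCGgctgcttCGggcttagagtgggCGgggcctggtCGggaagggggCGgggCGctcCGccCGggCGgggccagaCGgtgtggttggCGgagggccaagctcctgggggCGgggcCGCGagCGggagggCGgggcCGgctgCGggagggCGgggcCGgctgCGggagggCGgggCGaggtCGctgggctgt
SND1: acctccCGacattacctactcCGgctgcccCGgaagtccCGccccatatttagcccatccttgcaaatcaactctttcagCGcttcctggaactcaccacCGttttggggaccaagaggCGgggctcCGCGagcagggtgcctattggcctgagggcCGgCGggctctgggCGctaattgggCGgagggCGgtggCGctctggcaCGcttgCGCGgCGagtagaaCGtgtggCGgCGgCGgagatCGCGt
MED13L: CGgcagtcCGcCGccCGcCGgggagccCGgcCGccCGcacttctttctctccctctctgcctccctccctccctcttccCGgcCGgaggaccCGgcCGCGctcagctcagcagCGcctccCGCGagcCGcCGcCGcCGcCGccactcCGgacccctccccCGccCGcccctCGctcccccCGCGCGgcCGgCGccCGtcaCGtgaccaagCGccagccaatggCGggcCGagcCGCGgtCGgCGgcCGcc

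These windows held 24 CG pairs for MLLT3, 28 for ANKRD11, 30 for MYO10, 25 for SND1 and 40 for MED13L. Over the 250 bases before and 50 bases after the start that the table gives per promoter, the 1349 promoters of 803 densely tiled genes had a median of 28 CG pairs and 67% G or C. All 35116 promoters in the table had medians of 14 and 58.7%. The letters TATAAA, read on both strands, stood in 104 promoters of tiled genes (7.71%) and in 4049 of all promoters (11.5%). H3K4me3 at these promoters is given in CPM (counts scaled to a common library total) for the nearest region on hg19. At MLLT3, described below, chr9:20621557-20621936 had 54.6 CPM (DLD1), 57.6 (SA), 53.7 (SPH) and 53.9 (METS). At ANKRD11 chr16:89557353-89557819 had 77.1 CPM (DLD1), 70.5 (SA), 68.1 (SPH) and 69.1 (METS). At MYO10, an unconventional myosin of filopodia, chr5:16935836-16936255 had 77.4 CPM (DLD1), 75.8 (SA), 72.3 (SPH) and 85.99 (METS). DLD1 was highest at ANKRD11 and METS at MYO10. At SND1, an RNA-binding nuclease, chr7:127292289-127292799 had 99.1 CPM (DLD1), 90.7 (SA), 93.7 (SPH) and 98.5 (METS). At MED13L, a subunit of the Mediator kinase module, chr12:116714544-116715004 had 52.7 CPM (DLD1), 50.9 (SA), 55.4 (SPH) and 53.1 (METS).

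The tiled genes held 68265 distinct regions. They took 54.1% (DLD1), 54.3% (SA), 51.7% (SPH) and 51.7% (METS) of the H3K79me3 counts on chromosomes 1 to 19, where the gene rows lie. All of this lay within 12.6% of the length covered by gene rows. Since the rule asks for many regions, this share is a description. A tiled gene held a median of 46 regions (30 to 249), and 97 genes held 100 or more. Its median length was 108 kb (26.5 to 1553 kb), and the regions covered a median of 18.6% of it. Rows with 28 and 29 regions, just outside the rule, numbered 63 and 65 with median summed H3K79me3 of 157 and 152 CPM. Those with 30 and 31 regions, just inside, numbered 51 and 54 with 168 and 176 CPM. In 96 tiled genes some regions also lay in an overlapping tiled gene.

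The gene with the most regions was MLLT3 (AF9), itself a reader of acetylated and crotonylated histones in the DOT1L complexes, at chr9:20341663-20622542 with 249 regions. Its summed H3K79me3 was 3551 CPM (DLD1), 3719 (SA), 3067 (SPH) and 2163 (METS). ANKRD11, a chromatin cofactor, followed at chr16:89334038-89556969 with 246 regions and 4669 CPM (DLD1), 3583 (SA), 5311 (SPH) and 4509 (METS), the highest mean of all tiled genes. In MLLT3 METS was lowest, and in ANKRD11 SA was lowest. MGAT5, an enzyme of N-glycan branching, held 240 regions at chr2:134877554-135212192 with 685 CPM (DLD1), 946 (SA), 962 (SPH) and 1361 (METS). AGAP1, a regulator of Arf GTPases, held 219 at chr2:236402733-237040444 with 1140.3 CPM (DLD1), 1149.7 (SA), 1438 (SPH) and 1376 (METS). In both of these genes DLD1 was lowest. APBB2, an adaptor of the amyloid precursor protein, held 216 at chr4:40812044-41218731 with 1623 CPM (DLD1), 1694 (SA), 1509 (SPH) and 1232 (METS). TCF7L2, the transcription factor at the end of the Wnt pathway in the intestine, held 203 at chr10:114710009-114927437 with 3712 CPM (DLD1), 3264 (SA), 2777 (SPH) and 1777 (METS). APBB2 and TCF7L2 had their lowest value in METS.

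TEAD1, a transcription factor of the Hippo pathway, held 193 regions at chr11:12695969-12966298 with 1600.0 CPM (DLD1), 1461 (SA), 1383 (SPH) and 1584 (METS). The unnamed rows chr17:70319264-70636611 and chr9:37588410-38068684 held 204 and 194. The second had 2003 CPM (DLD1), 1794 (SA), 2505 (SPH) and 1856 (METS). The first had 928 CPM (DLD1), 1039.7 (SA), 768 (SPH) and 2011 (METS), and so stood higher in METS than in the other 3 lines. A pair of further genes were among the 5 with the highest summed H3K79me3. FAT1, an atypical cadherin, at chr4:187508937-187647876, had 4473 CPM (DLD1), 4617 (SA), 4490.2 (SPH) and 2967 (METS). CTBP2, a transcriptional corepressor, at chr10:126676421-126849739, had 3979.6 CPM (DLD1), 3296 (SA), 4914 (SPH) and 3844 (METS). FAT1 was lowest in METS and CTBP2 highest in SPH.

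**Figure D1:**
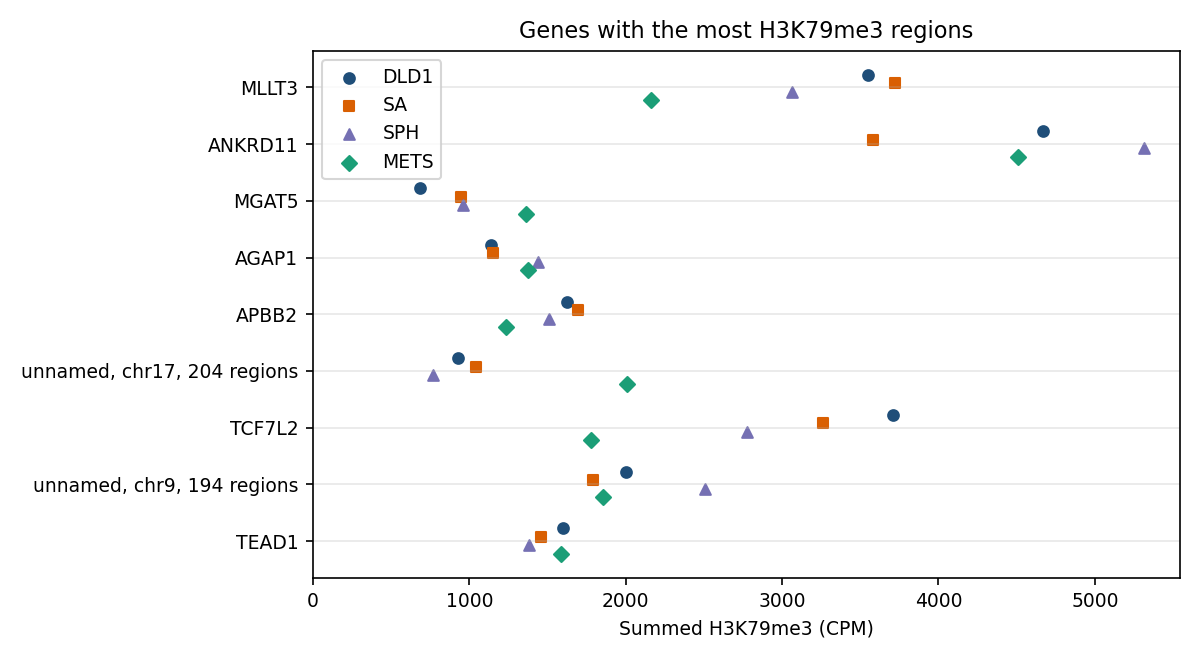
Summed H3K79me3 in CPM (horizontal axis) of genes with the most H3K79me3 regions, 1 point per line and no error bars since each line has 1 library. METS is the lowest point for MLLT3, APBB2 and TCF7L2 and the highest for the unnamed row on chromosome 17 and MGAT5 (1361 CPM against 685 CPM in DLD1).

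Along the gene, H3K79me3 was gathered at the end marked by H3K4me3. The start of each row was taken as the end nearer its strongest H3K4me3 region, which could be done for 1262 genes, and this was the RefSeq 5′ end in 778 of the 801 genes with a strand. The first 25% of the gene held a median of 66.5% (DLD1), 68.4% (SA), 67.9% (SPH) and 65.3% (METS) of its H3K79me3 counts. The last 25% held 0.571%, 0.531%, 0.542% and 0.965% in the same order. Counted as regions and not as reads, the first 25% held a median of 44.4%, so that regions near the start were both closer together and stronger. The counts passed 50% of the gene's total at a median of 15.3 kb from the start and 90% at 43.95 kb. Rows with fewer regions had more of their counts at the start. In DLD1 the first 25% held a median of 76.9% in rows with 10 to 29 regions and 84.7% in rows with 1 to 9. These rows were shorter, with median lengths of 44.9 and 24.4 kb.

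Where the strongest H3K4me3 region lay within 2 kb of the row end (1026 genes), the strongest H3K79me3 region lay a median of 2.79 kb from that end (interquartile range 1.70 to 4.75 kb). In DLD1 the median region had 13.7 CPM at 1 to 2 kb, 5.85 CPM at 10 to 20 kb and 2.53 CPM at 50 to 100 kb. Over the first kb the lines stood apart, with 9.31 CPM in DLD1 and 7.56 in SA but 12.8 in SPH and 13.7 in METS. At 100 to 200 kb METS had 2.33 CPM and the other lines 1.78 to 1.99 CPM. The share in the first 25% was lower in METS than in DLD1 in 861 genes and higher in 366. In SA it was lower in 348 and higher in 878, and in SPH lower in 396 and higher in 830. The changes were small, with a median per gene of -1.24 percentage points in METS, 0.83 in SA and 0.78 in SPH. These shifts were not particular to tiled genes. In rows with 10 to 29 regions the median share was also lower in METS than in DLD1 (74.3% against 76.9%). In SA and SPH it was higher there too (77.6% and 77.8%).

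**Figure D2:**
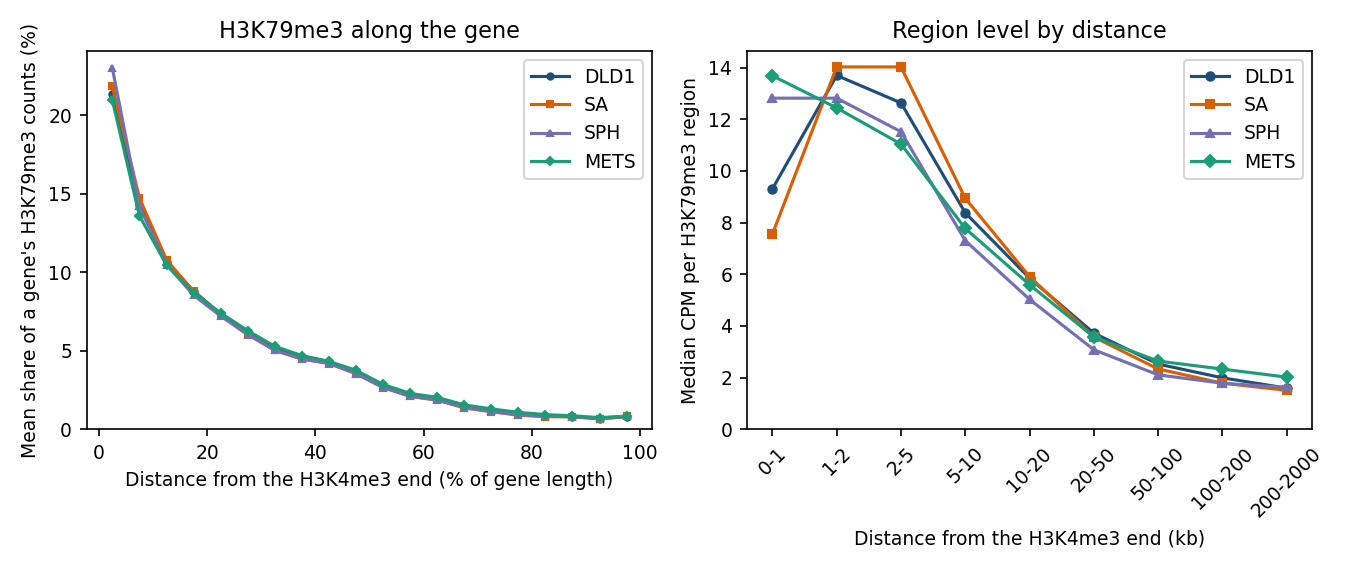
Left, mean share of a gene's H3K79me3 counts (%) in bins of 5% from the H3K4me3 end to the other end; right, median CPM per H3K79me3 region by distance from that end (kb); lines and points are the 4 cell lines. The first bin holds 20.9% (METS) to 22.99% (SPH) of the counts, and within 1 kb the medians of SPH and METS lie above those of DLD1 and SA.

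Among tiled genes, the mark reached further in kb and over a smaller part of the gene in longer rows. In the shortest 25% of genes (26.5 to 67.5 kb) the first 25% of the gene held a median of 57.5% of the counts and 50% of the counts lay within a median of 9.98 kb. In the longest 25% (171 to 1553 kb) the values were 75.1% and 31.2 kb. The rule bears on this trend, since a short row can hold 30 regions only if they run through much of it. Regions covered a median of 29.8% of the shortest rows and 8.81% of the longest. Between the classes of rows given above, the shorter ones had the larger share. The trend is thus a description of rows that met the rule. AGAP1 had 86.2% of its counts in the first 25%, whereas ANKRD11 had 41.4%. RORA, a nuclear receptor, at chr15:60780483-61521518, LAMA3, a laminin chain, at chr18:21269407-21535030 and the row chr8:109213445-109447562 had 100%, and ASPH, a hydroxylase, at chr8:62413116-62627155 had 99.9%. In RORA the strongest H3K4me3 region lay inside the first 25% of the row and not at the row end. Its H3K79me3 counts passed 90% of their total at 99.8 kb from the counted end, before that H3K4me3 region was reached. Most of them thus lay between the counted end and that region, and the counted end may be the 3′ end of RORA. The share of RORA therefore does not show that its H3K79me3 lay at the start of the gene. For LAMA3, ASPH and chr8:109213445-109447562 the place of the strongest H3K4me3 region is not given here. Their shares carry the same limit. In 54 genes the first 25% held under 1%, and in 43 of these the strongest H3K4me3 region itself lay over 25% into the row. PDE4D, a cAMP phosphodiesterase, at chr5:58264865-59817947, was one, with 50% of its H3K79me3 reached only 1272 kb from the row end. RAP1A, a small GTPase, at chr1:112084840-112259313 and the rows chr12:15773092-16035263, chr1:61330931-61928465 and chr1:109358520-109506106 also had 0% in their first 25%. In chr9:37588410-38068684, among the rows with the most regions, the last 25% held 81.1% (METS) to 86.3% (SPH) of the counts. Its strongest H3K4me3 region lay 44.3% into the row. Only the widest of nested rows was kept, and whether these counts belong to another gene within it was not tested.

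Against DLD1, summed H3K79me3 of most tiled genes stayed within 1.5-fold (with 0.5 CPM added to each value). In SA 5 of 1267 genes were past 1.5-fold higher and 13 lower, where 3.32% and 7.27% of all rows with a region were. In SPH 33 were higher and 87 lower, beside 11.3% and 8.37% of all such rows. In METS 68 were higher and 61 lower, beside 21.2% and 3.33%. As percentages of tiled genes the METS counts were 5.37% and 4.81%. For the other 2 derivatives they were 0.395% and 1.03% in SA and 2.60% and 6.87% in SPH. By the rule the rows outside the tiled genes sum fewer regions. Those with 1 to 9 regions had a median of 2.29 CPM per region against 5.59 CPM in tiled genes. The shares are therefore not compared at like counts. The median log2 ratio of tiled genes was 0.029 (SA), -0.14 (SPH) and -0.014 (METS), against -0.023, -0.0098 and 0.17 over all rows with a region. The split in METS depended on the scaling, with 51 higher and 109 lower under TMM factors and 45 and 124 under DESeq2 size factors, which shift every log2 ratio of METS by -0.13 and -0.17. In SA the split was 8 and 10 under DESeq2 size factors and 7 and 6 after quantile normalization of the regions, and in SPH 36 and 48 after it.

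In METS and SPH the ratio moved with the level of the mark. Among the 25% of tiled genes with the weakest regions (up to 3.67 CPM per region), the median log2 ratio to DLD1 was 0.15 in METS, and 45 genes were past 1.5-fold higher and 6 lower. Among the 25% with the strongest (from 8.62 CPM), it was -0.11, with 7 higher and 18 lower. In SPH the medians of these groups were -0.26 and -0.043, with 47 and 2 genes lower. In SA they were -0.024 and 0.025. With 1 library per line, the enrichment of a library and the state of its cells cannot be told apart.

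**Figure D3:**
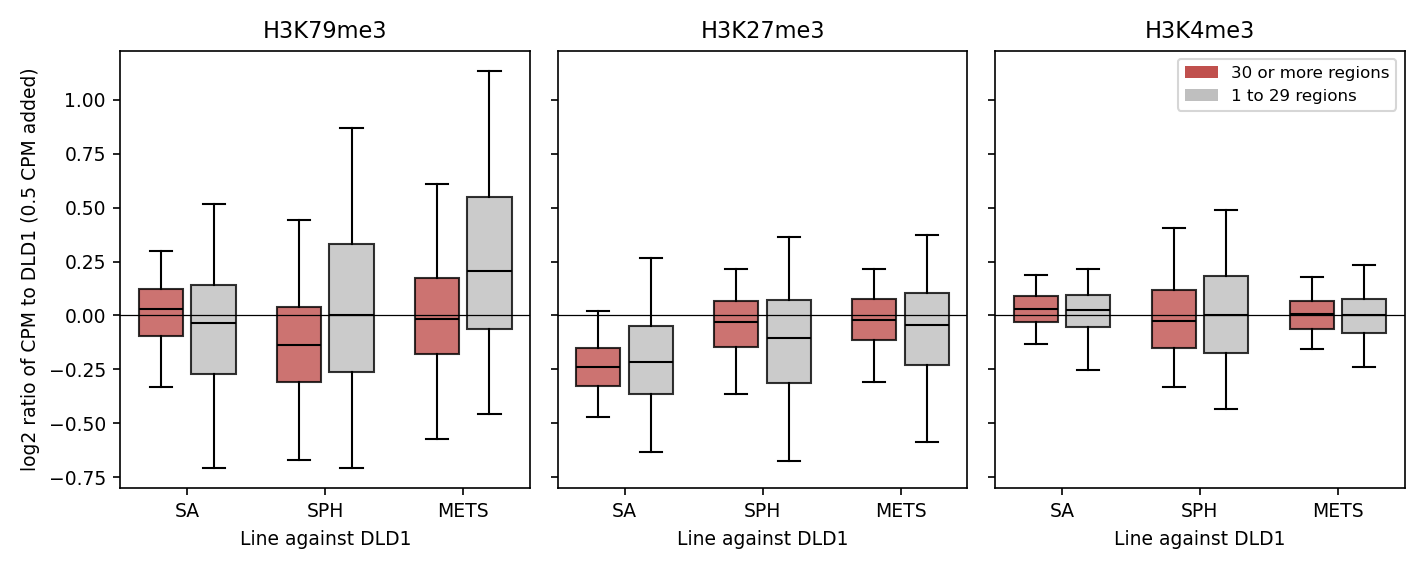
Log2 ratio of CPM to DLD1 (0.5 CPM added) for genes with 30 or more H3K79me3 regions and for rows with 1 to 29, by mark and line; boxes span the quartiles with the median, and whiskers 5% to 95% over rows. In H3K79me3 the boxes of tiled genes are narrower, and that of METS is centred near 0. By the rule tiled genes sum more regions than the other rows, so the widths are not compared at like counts.

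The gene that stood furthest apart was the unnamed row chr2:198669426-199437305, with 33 regions. Its summed H3K79me3 was 4.39 CPM (DLD1), 6.32 (SA), 47.04 (SPH) and 147 (METS), from 33, 46, 290 and 943 counts. It was 33.4-fold higher in METS than in DLD1 (95% interval 23.6 to 48.8) and 10.7-fold higher in SPH (7.46 to 15.9). All intervals cover counting error only. The high values were those of METS and SPH, 1 epithelial and 1 mesenchymal line. With 1 count per region in DLD1, it may have met the rule only through the lines where it is high, so these ratios are a description and support nothing. No other tiled gene had a line with under 2 counts per region. That cutoff does not show that the others would have met the rule in every line. In METS 99.9% of the counts lay between 50% and 75% of the way along the row, and the strongest region, chr2:199178040-199178604, had 0.532 CPM in DLD1 and 10.9 in METS. The same row had 16.5 CPM (DLD1), 23.1 (SA), 23.2 (SPH) and 25.7 (METS) of H3K4me3, and its H3K27me3, 1433 CPM per Mb in DLD1 and 1766 in METS, was among the 5 highest of the tiled genes.

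In METS the next highest were chr7:79763271-79848718 with 31.9 CPM (DLD1), 33.1 (SA), 12.7 (SPH) and 117 (METS), and PTCH1, the Hedgehog receptor, at chr9:98205262-98279339 with 130.2 CPM (DLD1), 182 (SA), 190.1 (SPH) and 404 (METS). PTCH1 was 3.10-fold higher in METS than in DLD1 (95% interval 2.88 to 3.34). FYN, a kinase of the Src family, at chr6:111981535-112194655 had 108 CPM (DLD1), 91.1 (SA), 78.2 (SPH) and 298 (METS) and was 2.75-fold higher in METS than in DLD1 (95% interval 2.53 to 2.99). In each of these rows METS stood above the other 3 lines. The row chr5:304291-438406 was 2.87-fold higher in METS than in DLD1 (95% interval 2.53 to 3.27). Lowest in METS were the unnamed row chr12:15773092-16035263, 3.39-fold lower in METS than in DLD1 (3.07 to 3.74), and EPB41L2, a protein of the cortical cytoskeleton, at chr6:131160487-131384462 with 414 CPM (DLD1), 342 (SA), 324 (SPH) and 138 (METS). SHROOM3, which shapes the apical side of epithelial cells, at chr4:77356253-77704406 had 1469 CPM (DLD1), 1105 (SA), 1082 (SPH) and 589 (METS), and was 2.50-fold lower in METS than in DLD1 (2.40 to 2.59). The row chr1:61330931-61928465 and DUSP16, a phosphatase of MAP kinases, at chr12:12628829-12715317, were 2.34-fold and 2.26-fold lower.

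In SPH the largest falls were at GRB10, an adaptor that restrains insulin receptor signalling, at chr7:50657760-50861159 with 167 CPM (DLD1), 148 (SA), 53.5 (SPH) and 428 (METS), and at the long noncoding RNA gene LINC02889 at chr7:17503069-17598533 with 65.5 CPM (DLD1), 38.2 (SA), 21.4 (SPH) and 139 (METS). GRB10 was 3.12-fold lower in SPH than in DLD1 (2.76 to 3.53) and highest in METS. OSBPL1A, an oxysterol-binding protein, at chr18:21742008-21977844 was 2.75-fold lower in SPH than in DLD1 (2.29 to 3.32). Apart from chr2:198669426-199437305, the highest against DLD1 were chr9:137208944-137332431, 2.40-fold higher in SPH than in DLD1 (95% interval 2.23 to 2.58), chr17:80186273-80219005, at 2.38-fold, NFIC, a transcription factor at chr19:3359561-3469215, at 2.23-fold, and chr14:99977603-100070363, at 2.18-fold. In SA the highest were chr1:219858769-220131989 at 1.96-fold, chr1:61330931-61928465 at 1.69-fold, LEF1, a Wnt transcription factor at chr4:108968701-109090112, at 1.61-fold, SNTB1, a syntrophin at chr8:121547985-121825513, at 1.60-fold and ARHGAP18 at 1.59-fold. The lowest in SA were chr9:112542589-112934792, 2.01-fold lower in SA than in DLD1 (1.76 to 2.29), and MYO1E, an unconventional myosin at chr15:59427113-59665099, 1.81-fold lower in SA than in DLD1 (1.66 to 1.98).

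The lines were also compared by phenotype, SA and SPH (mesenchymal) against DLD1 and METS (epithelial), with each line as 1 replicate. In edgeR's quasi-likelihood test no tiled gene passed an adjusted p of 0.05 in H3K79me3, where 0.0% and 0.0% of rows were called higher and lower. The smallest adjusted p was 0.999, and 50 tiled genes had an unadjusted p under 0.05 (3.95% of tiled genes and 2.61% of all rows). DESeq2 also called 0, with 28 at an unadjusted p under 0.05 (2.21% of tiled genes and 1.72% of all rows). Without DLD1, METS alone stood for the epithelial lines. The log2 ratio of the mesenchymal lines to METS was then -2.08 (GRB10), -1.81 (FYN), 1.80 (ARHGAP18) and -1.58 (EFNA5). These are differences from METS and not between phenotypes. Without METS, DLD1 stood alone, and chr2:198669426-199437305, the row described above, had a log2 ratio of 2.59. Both mesenchymal lines lay above both epithelial lines in 111 tiled genes and below in 227, 8.76% and 17.9%, beside 7.38% and 19.6% of all rows with a region. These counts hold for library totals and were not recounted under TMM factors, which shift every log2 ratio of METS by -0.13. 

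The widest gap with the mesenchymal lines above was at ARHGAP18, a GTPase-activating protein, at chr6:129897277-130031370. It had 715 CPM (DLD1), 1137 (SA), 1349.8 (SPH) and 358 (METS), with the mesenchymal pair 2.24-fold above the epithelial pair (95% interval 2.18 to 2.31; adjusted p = 0.999 in edgeR). SLC12A2, a sodium, potassium and chloride cotransporter, at chr5:127419458-127525380 had 800.1 CPM (DLD1), 1195 (SA), 1084 (SPH) and 525 (METS). The row chr1:219858769-220131989 had 174 CPM (DLD1), 339.6 (SA), 223 (SPH) and 161 (METS). ZCCHC14 at chr16:87439852-87525651 and ABTB2 at chr11:34172535-34379555 were the other 2 of the 5 widest. Below, the genes with the widest gaps included chr9:112542589-112934792, with 94.4 CPM (DLD1), 47.02 (SA), 38.1 (SPH) and 107 (METS). JARID2, a cofactor of Polycomb repressive complex 2, at chr6:15246527-15522252 had 59.03 CPM (DLD1), 35.5 (SA), 30.98 (SPH) and 83.9 (METS), and the epithelial pair was 2.11-fold above the mesenchymal pair. FOXO3, a transcription factor of the insulin pathway, at chr6:108881038-109005977 had 81.1 CPM (DLD1), 47.7 (SA), 38.6 (SPH) and 106 (METS), 2.13-fold. In LINC02889 and OSBPL1A the mesenchymal lines also lay below both epithelial lines. None of these gaps passed the test across all rows.

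**Figure D4:**
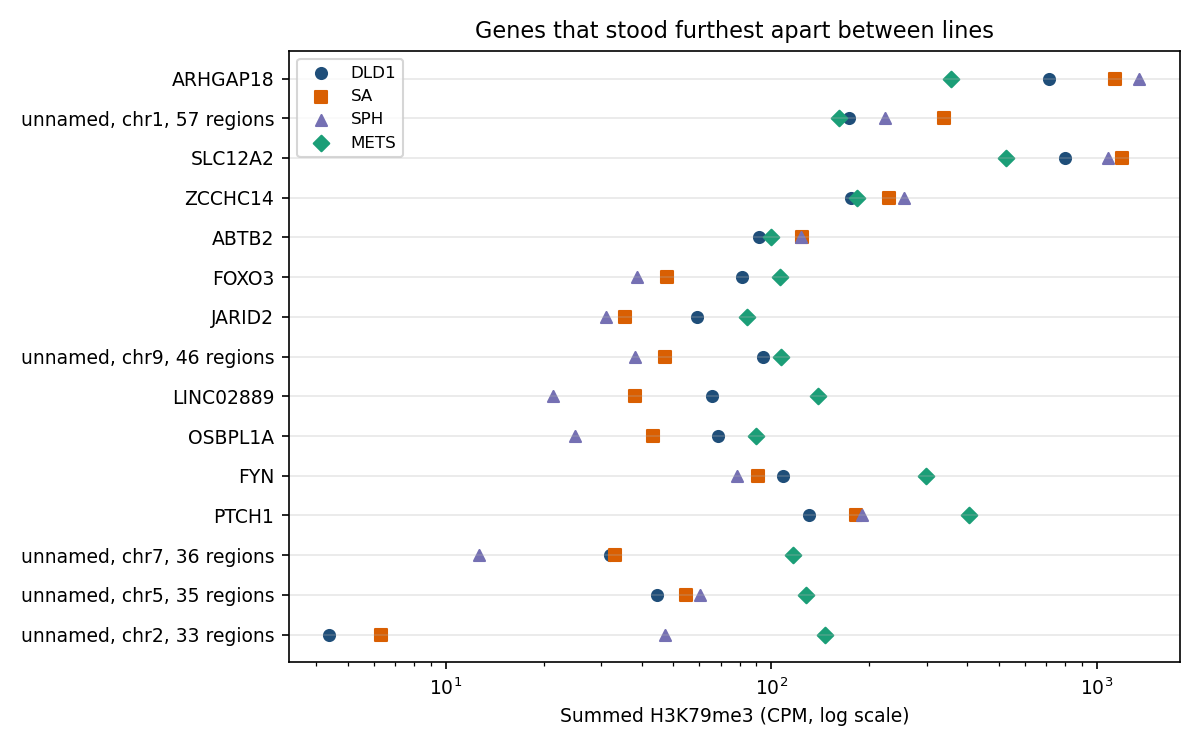
Summed H3K79me3 in CPM (log scale) in each line, 1 point per library without error bars, for the 5 genes with the widest gap above and the 5 with the widest gap below between mesenchymal and epithelial lines, and for the 5 highest in METS against DLD1. ARHGAP18 runs from 358 CPM in METS to 1349.8 in SPH, and the unnamed row on chromosome 2 from 4.39 CPM in DLD1 to 147 in METS.

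From each gene list some of the tiled genes with the most regions are given, and those past 1.5-fold were named after their values were seen. Beside the lists, 11.8% of all rows with a region were densely tiled. Of all tiled genes 0.395% (SA), 2.60% (SPH) and 5.37% (METS) were past 1.5-fold higher and 1.03%, 6.87% and 4.81% lower, and with these few genes per list the counts are a description. Of 20 genes listed for DOT1L and the elongation complexes, 17 had a named row with a H3K79me3 region and 7 were densely tiled, MLLT3, MLLT10, AFF1, DOT1L, AFF4, MLLT1 and ELL. DOT1L, the methyltransferase, at chr19:2164148-2232577 had 52 regions and 450.3 CPM (DLD1), 393 (SA), 608 (SPH) and 547 (METS). MLLT10 (AF10), its partner, at chr10:21823094-22032559 had 359.5 CPM (DLD1), 373 (SA), 306 (SPH) and 389 (METS). MLLT1 (ENL), at chr19:6212966-6279959, had 182 CPM (DLD1), 179.7 (SA), 299 (SPH) and 264 (METS) and was 1.64-fold higher in SPH than in DLD1 (95% interval 1.53 to 1.76). AFF1 and AFF4 are scaffolds of the super elongation complex, and AFF1, at chr4:87856154-88062206, had 165 CPM (DLD1), 228 (SA), 187 (SPH) and 145 (METS). Of the 7 genes 1 was past 1.5-fold higher in SPH (MLLT1) and 1 lower in METS (MLLT3), with medians on the log2 scale of -0.021, 0.18 and 0.17 in SA, SPH and METS. The median in METS was 0.042 under TMM factors and -0.0029 under DESeq2 size factors, and that in SA was 0.014 under the latter. edgeR called 0 of them between phenotypes (adjusted p from its quasi-likelihood test).

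Of 58 listed chromatin regulators, 41 had such a row and 28 were tiled. ARID1B, a subunit of SWI/SNF remodelling complexes, at chr6:157099063-157531913 had 151 regions and 514 CPM (DLD1), 530.4 (SA), 459 (SPH) and 559.9 (METS). CHD7, a remodelling helicase, at chr8:61591337-61779465 had 496 CPM (DLD1), 572 (SA), 502 (SPH) and 672 (METS). Past 1.5-fold were 1 lower in SA, 3 lower in SPH and 1 higher in METS, the lower ones being JARID2 in SA and ARID2, JARID2 and NCOR1 in SPH, with medians of 0.053, -0.11 and -0.08. edgeR called 0 of the 28.

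For the Wnt pathway and intestinal identity, 8 genes of 40 listed (21 with a row) were tiled, among them TCF7L2, LRP6, RNF43, AXIN1, LEF1, GATA6 and AXIN2. LRP6, the Wnt coreceptor, at chr12:12268959-12419946 had 393 CPM (DLD1), 459.9 (SA), 318 (SPH) and 442 (METS). RNF43, a ubiquitin ligase that removes Wnt receptors, at chr17:56429861-56494956 had 2499 CPM (DLD1), 2589.9 (SA), 2515 (SPH) and 1277 (METS). RNF43 and TCF7L2 were past 1.5-fold lower in METS, and LEF1 was past it in SA and METS, higher in both. AXIN1 was past it in SPH, 1.61-fold higher in SPH than in DLD1 (95% interval 1.53 to 1.70), at chr16:337440-402673. The medians were 0.049 (SA), 0.074 (SPH) and -0.38 (METS), with single genes in METS from -1.06 to 1.07, and edgeR called 0.

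Of 46 listed genes of epithelial junctions and the cytoskeleton, 29 had such a row and 13 were tiled. PARD3, a polarity scaffold, at chr10:34398488-35104253 had 107 regions and 320.0 CPM (DLD1), 344 (SA), 298 (SPH) and 291 (METS). VCL, vinculin, at chr10:75757872-75879918 had 1085 CPM (DLD1), 978 (SA), 746 (SPH) and 809.9 (METS). CDH1, E-cadherin, at chr16:68771128-68869451 had 857 CPM (DLD1), 682 (SA), 839.9 (SPH) and 693 (METS). MACF1, a linker of actin and microtubules, at chr1:39546988-39952849 had 244 CPM (DLD1), 289 (SA), 271 (SPH) and 214 (METS). Past 1.5-fold lower were 1 of the 13 in SA (OCLN), 4 in SPH (TJP1, OCLN, DST and ACTN1) and 2 in METS (PKP2 and DST), and 1 was higher in METS (LAMA3). Of all tiled genes 1.03%, 6.87% and 4.81% were lower in SA, SPH and METS. OCLN, occludin of tight junctions, at chr5:68788119-68853931 had 203 CPM (DLD1), 129 (SA), 133 (SPH) and 208 (METS), with both mesenchymal lines below both epithelial lines. The medians were -0.15, -0.11 and -0.31, and edgeR called 0. Of 30 listed mesenchymal genes, 7 had such a row and only TGFBR2, a receptor of TGF-beta, was tiled, at chr3:30647994-30735634 with 1143 CPM (DLD1), 1437 (SA), 1206 (SPH) and 682 (METS). Of 41 genes of growth factor receptors and signalling, 30 had such a row and 11 were tiled. RPTOR, a subunit of the mTOR complex, at chr17:78518619-78940171 had 276 CPM (DLD1), 256 (SA), 302 (SPH) and 373 (METS). PTK2, focal adhesion kinase, at chr8:141667999-142012315 had 608 CPM (DLD1), 515 (SA), 471 (SPH) and 467 (METS), and SMAD3, a TGF-beta mediator, at chr15:67356101-67487533 had 608 CPM (DLD1), 507 (SA), 402 (SPH) and 368 (METS). In that list 2 were past 1.5-fold lower in SPH (NOTCH2 and SMAD3) and 1 in METS (SMAD3), and the medians were -0.08, -0.33 and -0.081. edgeR called 0 of them and 0 of the mesenchymal list.

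The H3K79me3 libraries held 6165169 to 7521451 counts over regions, the H3K4me3 libraries 6722508 to 7753937 and the H3K27me3 libraries 15605814 to 20410151 over gene rows. The cell type of the lines was checked on markers with a named row. Of 13 epithelial colon markers 10 had one, and 7 of these held H3K79me3 regions, with summed H3K79me3 of 1398 CPM (SA) to 1889 CPM (SPH). CDH1 alone was tiled, and ESRP1, an epithelial splicing factor with 29 regions, fell 1 region short. KRT20, CDX1 and VIL1 held no H3K79me3 region. Of 7 mesenchymal markers 4 had a named row (VIM, ZEB1, FN1 and SNAI2), and 0 of these held a H3K79me3 region in the region set, in the mesenchymal lines as in the others. Their summed H3K4me3 was 107 CPM (DLD1), 104 (SA), 101 (SPH) and 110.0 (METS), so that these marks did not set the lines labelled mesenchymal apart at these genes. The epithelial markers had 820.1 CPM (METS) to 929 CPM (SA) of H3K4me3. Of 7 markers of fibroblasts, endothelium and blood 6 had a row, of which COL1A2 and CDH5 had 0 H3K4me3 CPM in every line. H3K4me3 ran over the lines from 10.8 to 15.5 CPM at COL1A1, 8.49 to 18.6 CPM at CD3E, 2.52 to 5.21 CPM at PDGFRB and 0 to 0.419 CPM at PTPRC. Of these 6 only PTPRC held a H3K79me3 region, with 0.275 CPM at most.

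H3K4me3 was present at nearly all tiled genes and changed little. Only 5 of 1267 had no H3K4me3 region within 1 kb of the row, and the strongest region had a median of 70.5 CPM. Rows with 10 to 29 H3K79me3 regions were nearly the same, with H3K4me3 in 99.3% and a median of 68.9 CPM. In rows with 1 to 9 the values were 90.9% and 60.2 CPM. Against DLD1, 0 tiled genes were past 1.5-fold higher and 0 lower in SA (beside 0.329% and 1.19% of all rows with a H3K79me3 region). In SPH 19 were higher and 6 lower (2.5% and 2.19%), and in METS 1 and 0 (1.22% and 0.539%). The largest fall was at NCOR1, a corepressor, at chr17:15932471-16121499, with 166 CPM (DLD1), 124 (SA), 77.9 (SPH) and 163 (METS) of H3K4me3, 2.14-fold lower in SPH than in DLD1 (1.93 to 2.37). Its H3K79me3 was 256 CPM (DLD1), 224 (SA), 115 (SPH) and 238 (METS), also lowest in SPH. The row chr7:76139745-76648340 had 125 CPM (DLD1), 99.6 (SA), 65.3 (SPH) and 131 (METS), lowest in SPH too. Its H3K79me3 was 160 CPM (DLD1), 113 (SA), 98.5 (SPH) and 164 (METS). Its H3K27me3 was 146 CPM (DLD1), 68.3 (SA), 52.2 (SPH) and 96.3 (METS). The active and the repressive marks thus had their lowest value in the same line, and the reason was not tested. GASK1B, at chr4:159045626-159094470, LSM12, at chr17:42112003-42144987, and WIPF2, at chr17:38375556-38440388, were 2.12-fold, 1.90-fold and 1.82-fold higher in SPH. In METS the only gene past 1.5-fold was chr2:198669426-199437305.

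Between phenotypes edgeR called 0 tiled genes in H3K4me3, beside 0.0% of rows called higher and 0.00671% lower. The smallest adjusted p was 0.143, with 121 tiled genes at an unadjusted p under 0.05 (9.59% of them and 13.05% of all rows). DESeq2 called 3, the overlapping rows chr17:46626232-46682274 and chr17:46626992-46683776, which shared their counts, and chr7:76139745-76648340. The chromosome 17 rows had 482 CPM (DLD1), 549 (SA), 650.0 (SPH) and 448 (METS). The edgeR count changed with each line left out, to 4 without DLD1, 4 without SPH and 1 without METS. Without SA it was 180 higher and 189 lower, in a fit where SPH alone stood for the mesenchymal lines and 39.9% of tiled genes and 39.1% of all rows had an unadjusted p under 0.05.

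H3K27me3 was low over the tiled genes. Among rows of 20 kb or more, tiled genes had a median of 176 CPM per Mb of row (DLD1), 149 (SA), 169 (SPH) and 171 (METS). Rows without a H3K79me3 region had 629.8, 566, 546 and 608, and rows with 10 to 29 regions 180.2 in DLD1, close to the tiled genes. In DLD1 1175 of 1267 tiled genes lay below the median of all rows of that length, 280.1 CPM per Mb, and 3 lay above the value that 10% of these rows exceed. The counts in the other lines were 1183, 1178 and 1187.

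**Figure D5:**
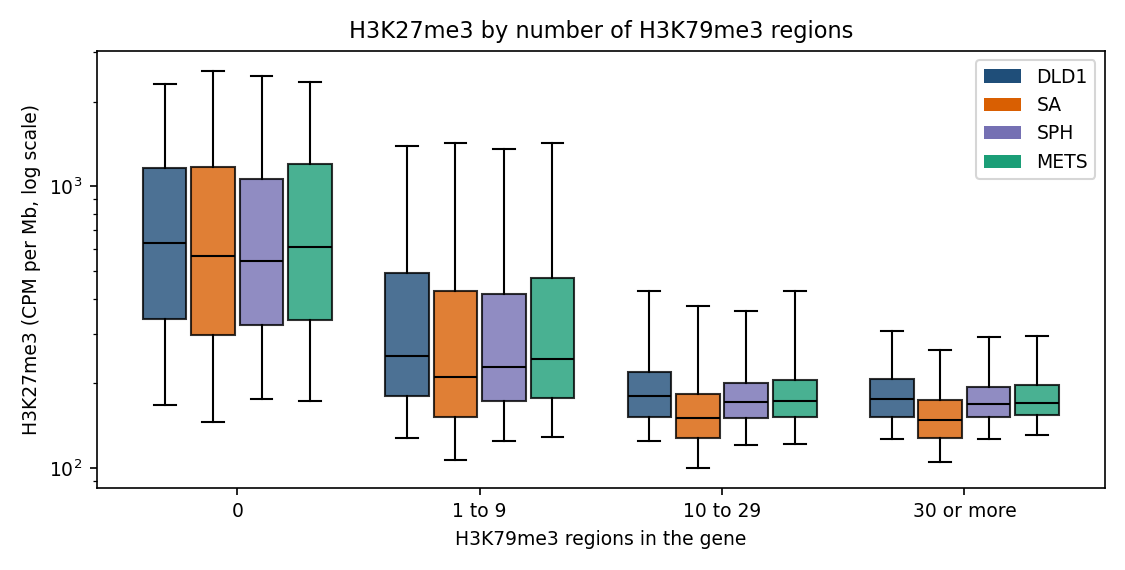
H3K27me3 in CPM per Mb of row (log scale) by number of H3K79me3 regions, for rows of 20 kb or more in each line; boxes span the quartiles with the median, and whiskers 5% to 95% of rows. The median falls from 629.8 CPM per Mb in DLD1 in rows without a region to 176 in tiled genes.

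The tiled genes with the most H3K27me3 were CDC27, a subunit of the anaphase-promoting complex, at chr17:45195069-45266788, with 1908 CPM per Mb (DLD1), 2221 (SA), 2499.6 (SPH) and 2316 (METS), and CAMTA1, a transcription activator, at chr1:6845384-7829766 with 1743, 1834, 1596 and 1787. CAMTA1 had 99.8% of its H3K79me3 in the first 25% of a row of 984 kb, so that both marks lay in 1 row. PDE4D, with its H3K79me3 at the far end of the row, had 1039.7, 1125, 1169 and 1023. The other 2 of the 5 highest were chr14:58466453-58764857 and chr2:198669426-199437305. The lowest was chr16:22448329-22503541, with 15.1 CPM per Mb in DLD1, from 13 counts. How reads that match several places were counted is not given in the sources used here, and rows with near-identical copies elsewhere are uncertain for that reason.

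Against DLD1, H3K27me3 of tiled genes was past 1.5-fold higher in 0 genes and lower in 20 in SA, beside 0.692% and 6.28% of all rows with a H3K79me3 region. The counts were 2 and 13 in SPH (1.26% and 7.13%) and 2 and 7 in METS (1.29% and 4.6%). RBM47, an RNA-binding protein of epithelial cells, at chr4:40425272-40632892 had 115 CPM (DLD1), 44.6 (SA), 34.98 (SPH) and 45.9 (METS). All derivatives lay below DLD1, and SPH was 3.28-fold lower (3.003 to 3.58). Its H3K79me3 was 281 CPM (DLD1), 287 (SA), 349.5 (SPH) and 229.9 (METS). OXR1, a protein of oxidation resistance, at chr8:107282473-107764922 had 301 CPM (DLD1), 157 (SA), 169 (SPH) and 164 (METS) of H3K27me3, again with all derivatives lower. HOXA3, a homeobox gene, at chr7:27145803-27192200 was 1.94-fold lower in METS than in DLD1 (1.63 to 2.31). Higher in all derivatives was the row chr6:57179603-57513375, with 164 CPM (DLD1), 227 (SA), 352 (SPH) and 263 (METS).

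The median log2 ratio of H3K27me3 over tiled genes was -0.24 (SA), -0.03 (SPH) and -0.02 (METS), and over all rows with a H3K79me3 region -0.22, -0.094 and -0.039. Under TMM factors the medians of tiled genes were -0.096, 0.093 and 0.023, so that only SA stayed below 0, and 6 genes were past 1.5-fold higher and 6 lower in SPH and 1 and 8 in SA. In METS the numbers were 2 and 4. Between phenotypes edgeR called 0 tiled genes (smallest adjusted p 0.0732), beside 0.101% and 0.0386% of all rows called higher and lower, and DESeq2 called 0. At an unadjusted p under 0.05 stood 22 tiled genes in edgeR (1.74% of tiled genes and 8.90% of all rows) and 4 in DESeq2 (0.316% of tiled genes and 3.29% of all rows). Without METS, DLD1 alone stood for the epithelial lines. Against it the mesenchymal lines had log2 ratios of -1.53 (RBM47), -0.89 (OXR1), -1.27 (chr7:76139745-76648340) and 0.82 (chr6:57179603-57513375). METS lay on the same side of DLD1 in all of them. Both mesenchymal lines lay below both epithelial lines in 493 tiled genes, 38.9%, beside 36.2% of all such rows, and above in 16, beside 5.43%. These counts hold for library totals only. TMM factors raise every log2 ratio to DLD1 by 0.15 in SA, 0.13 in SPH and 0.045 in METS. The imbalance was not recounted under them.

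The other marks were then read in the genes whose H3K79me3 was past 1.5-fold. In METS the 68 genes past 1.5-fold higher in H3K79me3 had median log2 ratios of 0.06 for H3K4me3 and -0.21 for H3K27me3, with H3K27me3 lower in 63 of them. The 61 lower genes had -0.04 and 0.023, with H3K27me3 higher in 35. In SPH the 33 higher genes had -0.11 and -0.36, with H3K27me3 lower in 31, and the 87 lower genes -0.11 and 0.063, with H3K27me3 higher in 60. In SA H3K27me3 was lower in 5 of 5 higher genes and higher in 1 of 13 lower genes. Over all 1267 tiled genes H3K27me3 lay below DLD1 in 94.2% (SA), 58.4% (SPH) and 55.8% (METS). Across the 1267 genes the log2 ratios of H3K79me3 and H3K27me3 had Pearson's r of -0.089 (SA), -0.40 (SPH) and -0.28 (METS). With H3K4me3, over 1262 genes, r was 0.049, 0.0061 and 0.21. These are descriptions across genes, which share libraries, depth and base composition and are not independent replicates.

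By chromosome, the median H3K79me3 ratios in SPH and METS were highest on chromosome 19. The 30 genes there had median log2 ratios of H3K79me3 to DLD1 of 0.33 in SPH and 0.23 in METS, and of H3K27me3 of -0.26 and -0.15. On the other chromosomes the H3K79me3 medians in SPH ran from -0.25 (chromosome 18) to 0.045 (chromosome 16). In SPH 5 of the chromosome 19 genes were past 1.5-fold higher and 0 lower. DOT1L, MLLT1 and ELL, described above, lie on it. Under DESeq2 size factors the METS median there was 0.057. These medians are a description with no test.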

How the data were processed

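Per the labels, chromatin of 4 lines was immunoprecipitated for 3 marks and sequenced, with 1 library per line and mark. The authors deposited raw read counts per region (H3K79me3, H3K4me3) or per gene row (H3K27me3), on hg19 per the submitters' processing notes. The aligner, peak caller, counter and any input control are not given in the sources used here. The H3K27me3 table as held here ends on chromosome 19, and its library total is the sum of those rows.

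CPM were computed from library totals, and H3K79me3 regions fully inside a row, or H3K4me3 regions over or within 1 kb of it, were summed. A line was called against DLD1 at 1.5-fold with 0.5 CPM added, with exact Clopper-Pearson 95% intervals. SA and SPH were compared with DLD1 and METS in edgeR 4.0.16 (quasi-likelihood test, Benjamini-Hochberg adjustment, threshold 0.05, all rows with a count), checked on simulated data. On the simulated data the test missed most 1.5-fold changes in H3K79me3 and H3K27me3. In H3K79me3 it also missed most 2-fold changes. A gene not called is therefore not shown to be unchanged. The p-values of edgeR measure spread between 4 different lines, with no replicate of any line. DESeq2 1.42.0, TMM factors, a filter at a mean of 100 counts, other folds, 0.1 CPM added, each line left out and quantile normalization were alternatives. Python 3.11.15 and R 4.3.3 were used.

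Rows were named by matching their lengths and spacing to RefSeq genes of GRCh38.p14, with at least 8 matched neighbours within 5 Mb, and not from an hg19 annotation. These settings were chosen after matches had been seen. 960 tiled genes were named and the others are given by position. Promoter sequences are RefSeq's. Named genes are those with the most regions, the highest levels, the largest ratios and gaps between lines, the extremes of H3K27me3 and of the share at the gene's start, and list members in order of regions; a few of them are not reported here. The tiled genes and the lists were chosen with earlier results of these data known. Rows with few or no H3K79me3 regions, and the chromosomes past 19, were not analysed here beyond the background.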

Additional observations from a re-analysis of the deposited data

How the results depend on the processing

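The numbers of tiled genes past the fold threshold depended mainly on that threshold. At 2-fold, H3K79me3 gave 0 higher in SA, 0 lower in SA, 7 higher in SPH, 16 lower in SPH, 20 higher in METS, 11 lower in METS, H3K27me3 gave 2 lower in SA, 1 higher in SPH, 2 lower in SPH, 0 higher in METS, 1 lower in METS, and H3K4me3 gave 1 higher in SPH, 1 lower in SPH, 0 higher in METS. At 25% above DLD1 or the same ratio below it, H3K79me3 gave 54 higher in SA, 73 lower in SA, 110 higher in SPH, 298 lower in SPH, 181 higher in METS, 184 lower in METS, H3K27me3 gave 3 higher in SA, 326 lower in SA, 25 higher in SPH, 95 lower in SPH, 17 higher in METS, 57 lower in METS, and H3K4me3 gave 6 higher in SA, 6 lower in SA, 99 higher in SPH, 76 lower in SPH, 10 higher in METS, 4 lower in METS. TMM factors moved H3K79me3 to 109 lower in METS, and H3K27me3 to 1 higher in SA, 8 lower in SA, 6 higher in SPH, 6 lower in SPH, 4 lower in METS. DESeq2 size factors moved H3K79me3 to 8 higher in SA, 45 higher in METS, 124 lower in METS, and H3K27me3 to 1 higher in SA, 8 lower in SA, 6 higher in SPH, 7 lower in SPH. Quantile normalization of the regions, chosen after seeing the data, moved H3K79me3 to 6 lower in SA, 48 lower in SPH. Adding 0.1 CPM instead of 0.5 CPM gave 1 lower in SA in H3K4me3 and kept the other counts within 1.5 times. Between phenotypes edgeR called 0 to 10 tiled genes in H3K79me3 with 1 line left out (10 without DLD1, 1 without METS), 0 to 4 in H3K27me3 (4 without METS) and 1 to 369 in H3K4me3 (369 without SA, 4 without DLD1, 4 without SPH, 1 without METS). In these fits 1 phenotype has a single line, which is assumed to vary like the others. DESeq2 called 3 in H3K4me3, and TMM factors and a filter at a mean of 100 counts gave the same 0 as library totals. With 20 or more regions 2155 genes would be densely tiled, and with 40 or more 829. No paired analysis was possible because each line had a single library per mark. With 1 library per line and mark, the depth limits only counting error, and the spread between cultures of 1 line was not measured.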

Other observations

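The share of rows with a H3K79me3 region that were densely tiled differed between chromosomes. It was highest on chromosome 13, with 20.4%, and chromosome 18, with 17.3%, and lowest on chromosome 19, with 7.39%. Chromosome 2 held 125 tiled genes and chromosome 1 held 118. No test was made of these shares. HOXA3, a homeobox gene with 54 H3K79me3 regions, had 1014 CPM (DLD1), 891 (SA), 1041 (SPH) and 965 (METS) of H3K79me3 and 21.1 CPM (DLD1), 21.4 (SA), 18.6 (SPH) and 10.9 (METS) of H3K27me3.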
